A study of Mus musculus with 57 samples.

Results

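The comparison set the progeny of double-positive Sox1+FOXA2+ embryonic stem cells (ESCs) against the progeny of FOXA2 single-positive Sox1-FOXA2+ ESCs at day 6 (D6), over all genes of the count table. Its members are 6 of the 57 RNA libraries of the series, chosen by their titles, with 3 biological replicates in each group. All cells came from 1 clone of a mouse ESC line in which EGFP takes the place of 1 Sox1 allele and mCherry is fused to FOXA2, so that both groups carry both reporters. The ESCs were differentiated in N2B27 medium with 1 uM retinoic acid (RA), sorted at D2 by the 2 reporters, replated on gelatin with RA in serum-based medium without LIF, and harvested 4 days later without a further sort. The label of a library is therefore the state of its parents at D2, and each library is a bulk sample in which fewer cells of a type and less RNA per cell cannot be told apart. The question the comparison addresses is which fate programs the offspring of cells holding a neuroectoderm and an endoderm marker together take on, relative to the offspring of cells holding the endoderm marker alone.

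SOX1 is among the earliest markers of neuroectoderm, the layer from which brain and spinal cord arise. FOXA2 is a pioneer transcription factor of endoderm that also marks the floor plate and node. In ESC cultures, FOXA2 together with GATA4, GATA6, SOX17 and SOX7 is typical of extraembryonic endoderm, which includes the parietal endoderm, a secretory layer that lays down a thick basement membrane of laminins and type IV collagen, and the visceral endoderm, an absorptive epithelium with endocytic receptors.

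The libraries held 24946933 to 38668537 counts in the Sox1+FOXA2+ progeny and 43152670 to 76784146 in the Sox1-FOXA2+ progeny. Mitochondrial transcripts took 11.9% to 14.9% and 11.7% to 12.4% of the counts. Genes lying wholly inside another gene were nearly all without counts in this table: of 13402 such genes 248 had any count in the 57 libraries, against 97.1% of the protein-coding genes that share no exon base with another gene's span. Sox1, Sox2, Tubb3, Nefl, Neurod1 and 12 of 30 listed Hox genes are among those listed at 0, which says nothing about their expression. Values below are normalized RNA counts (CPM, read counts of a gene per 1000000 counts of the library, scaled by TMM), given in the order of replicates 1, 2 and 3. Differences are log2 fold changes of Sox1+FOXA2+ minus Sox1-FOXA2+ progeny with their standard error (SE), from edgeR's quasi-likelihood test, and a gene is called at an adjusted p under 0.05.

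Foxa2 (ENSMUSG00000037025.11, chr2:148042877-148046969 on GRCm38, minus strand), the endoderm marker of the sort, is given first. Both groups descend from FOXA2+ cells, so its level at D6 is no check of the labels. It stood at 14.0, 23.7 and 19.99 CPM in the Sox1+FOXA2+ progeny and 79.7, 90.8 and 79.8 CPM in the Sox1-FOXA2+ progeny. The libraries did not overlap, and Foxa2 was 4.34-fold lower in the double-positive progeny (log2 fold change -2.12 ± 0.28 (SE), adjusted p = 0.000511). The progeny of Sox1+FOXA2- cells, the third group of the day, held 5.74, 5.86 and 7.25 CPM. Sox1 lies wholly inside another annotated gene and had no counts in any of the 6 libraries, so that no value can be given for the second marker.

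Across 21069 genes tested, 976 were called (4.63%), of which 480 were higher (2.28%) and 496 lower (2.35%) in the Sox1+FOXA2+ progeny. Counts of called genes in the lists below are to be read beside these shares. The absolute log2 fold change of the called genes had a median of 1.65 and was at least 1 for 878 of them. In 966 of the called genes (4.58% of those tested) the 3 libraries of one group lay wholly above those of the other, which was the case, called or not, in 21.1% of all genes tested. The count rested on single libraries in part: without double-positive replicate 2 it was 466, without FOXA2 single-positive replicate 2 it was 583, and without FOXA2 single-positive replicate 3 it was 589. Without FOXA2 single-positive replicate 1 it was 1341. That library stood apart from the other two of its group, with a summed level of the parietal endoderm list of 14547 CPM against 33201 and 29394 CPM, and of the epithelial list of 5393 CPM against 1725 and 1563 CPM.

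**Figure D1:**
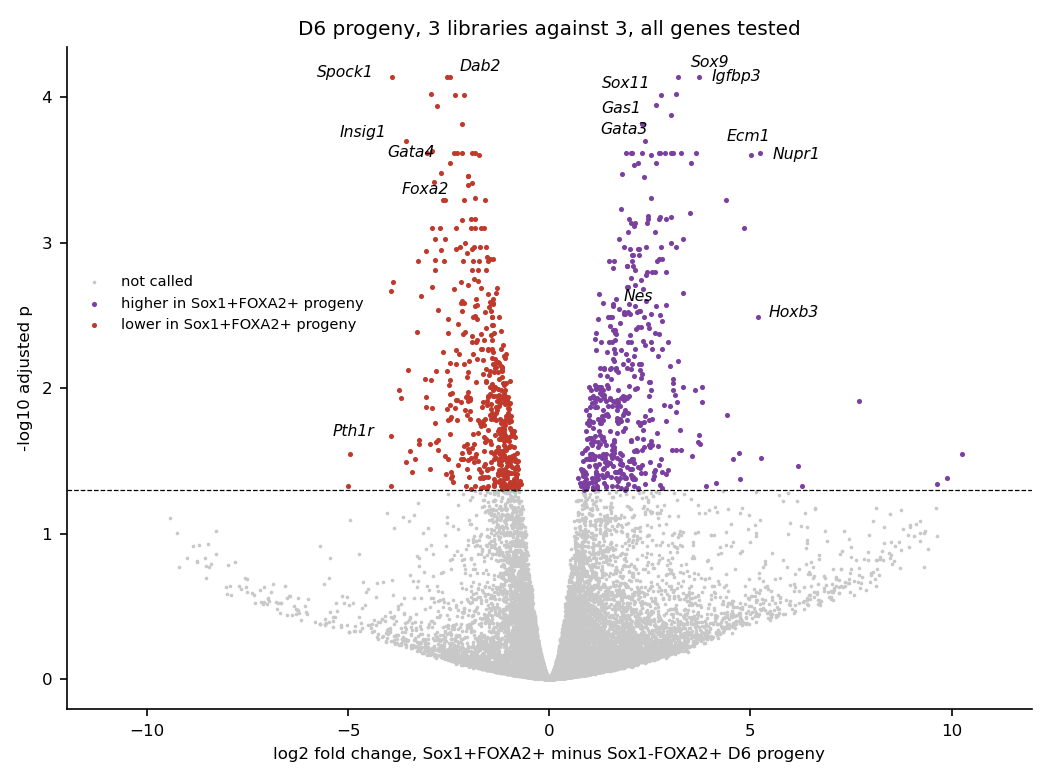
Log2 fold change (Sox1+FOXA2+ minus Sox1-FOXA2+ D6 progeny) against -log10 of the adjusted p for 21069 genes, with the threshold of 0.05 dashed. Both sides hold a similar number of called genes, 480 higher and 496 lower, and the smallest adjusted p-values belong to Sox9 and Igfbp3 on the right and to Dab2, Spock1 and Rffl on the left.

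For 2 called genes of the endoderm lists and 2 of the neural progenitor list, all with small p-values and an entry in RefSeq's promoter table, the 250 bases before the start are shown, because these genes stand for the sides of the comparison. Capitals mark a GATA factor motif, searched as AGATAA, with T allowed in the first place and G in the last, on both strands and with overlaps counted. The windows are 5′ to 3′ on the gene's strand, on GRCm38.p6: Dab2 at chr15:6299539-6299788 (plus), Tfpi at chr2:84476760-84477009 (minus), Sox11 at chr12:27342719-27342968 (minus) and Nes at chr3:87970843-87971092 (plus). Dab2 and Tfpi each have a second start in the table.
Dab2: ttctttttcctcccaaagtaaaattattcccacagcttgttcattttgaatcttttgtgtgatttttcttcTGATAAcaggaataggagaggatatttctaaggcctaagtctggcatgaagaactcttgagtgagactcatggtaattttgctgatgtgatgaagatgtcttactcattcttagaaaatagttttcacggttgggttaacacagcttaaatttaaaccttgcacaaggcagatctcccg
Tfpi: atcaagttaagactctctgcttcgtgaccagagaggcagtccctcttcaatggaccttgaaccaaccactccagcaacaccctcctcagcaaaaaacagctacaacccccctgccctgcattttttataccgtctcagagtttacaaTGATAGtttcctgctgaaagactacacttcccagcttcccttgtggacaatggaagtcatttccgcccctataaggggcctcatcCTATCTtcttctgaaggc
Sox11: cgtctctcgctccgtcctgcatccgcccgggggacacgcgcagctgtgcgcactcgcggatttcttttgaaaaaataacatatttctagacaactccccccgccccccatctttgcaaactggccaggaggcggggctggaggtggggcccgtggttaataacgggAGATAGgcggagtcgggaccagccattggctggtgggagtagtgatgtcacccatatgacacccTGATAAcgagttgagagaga
Nes: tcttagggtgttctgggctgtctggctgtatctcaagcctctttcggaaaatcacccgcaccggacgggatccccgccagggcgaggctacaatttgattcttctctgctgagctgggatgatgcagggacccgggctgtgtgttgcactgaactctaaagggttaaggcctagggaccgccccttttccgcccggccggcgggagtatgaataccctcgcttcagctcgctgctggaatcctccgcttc
The window of Dab2 holds 1 match, that of Tfpi 2, that of Sox11 2 and that of Nes 0. Foxa2 of the endoderm lists and Nr2f2 of the neural progenitor list were chosen by the same rule and have an entry. Their windows are not printed and hold 0 matches for Foxa2 and 1 for Nr2f2. The letters are found in 27.1% of the windows of all 27025 genes of the table and in 20.7% of those of the 14293 tested genes with an entry. They are found in 15.5% of 387 called lower genes and 13.3% of 347 called higher genes with an entry.

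Several endoderm transcription factors were lower in the double-positive progeny. Of 11 such genes tested, 6 were called lower, 0 were called higher and 5 were not called. Of all 11, 8 had a log2 fold change below 0 and 3 above it, and their median log2 fold change was -2.03, against 0.09 over all genes tested. Gata4 (ENSMUSG00000021944.15, chr14:63198922-63271692), a zinc finger activator of the endoderm program, stood at 144, 91.1 and 82.7 CPM in the Sox1+FOXA2+ progeny and 411, 787 and 577 CPM in the Sox1-FOXA2+ progeny. The groups were far apart, with a 5.58-fold difference (log2 fold change -2.48 ± 0.30 (SE), adjusted p = 0.000283). Its relative Gata6, which starts the primitive endoderm program in the blastocyst, stood at 103, 97.1 and 72.4 against 217, 578 and 483 CPM in the same groups. FOXA2 single-positive replicate 1 was the lowest of its group, yet above every double-positive library (log2 fold change -2.23 ± 0.32 (SE), adjusted p = 0.00107).

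Sox17, an HMG box factor of endoderm, was at 11.9, 35.0 and 33.9 CPM against 102, 126 and 102 CPM (log2 fold change -2.03 ± 0.41 (SE), adjusted p = 0.0123). Sox7, which marks parietal endoderm, was at 71.6, 37.7 and 37.8 against 117, 539.9 and 402 CPM (log2 fold change -2.85 ± 0.55 (SE), adjusted p = 0.0173). Neither overlapped between the groups, and Sox17 kept its call without any one library. The call of Sox7 was lost without any one of 3 libraries, with an adjusted p of 0.114 without double-positive replicate 2, 0.11 without double-positive replicate 3 and 0.083 without FOXA2 single-positive replicate 3.

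Some of these genes stood between the levels of the single-positive progenies. Gata4 stood at 31.8, 26.9 and 18.5 CPM in the progeny of Sox1+FOXA2- cells and Sox7 at 25.9, 14.5 and 11.97 CPM, in each case below the double-positive libraries. Gata6 at 59.1, 85.2 and 59.0 CPM and Sox17 at 32.1, 19.6 and 12.1 CPM overlapped with them. These values stand side by side, and the third group was not tested against the double-positive progeny here.

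Parietal endoderm genes and the genes of the basement membrane were lower without exception in direction. All 15 parietal endoderm genes and all 17 basement membrane genes tested had a log2 fold change below 0. Of each list 11 were called lower and 0 higher, with medians of -2.30 and -2.09. The study shows endoderm markers for these same samples, and the lists were chosen with earlier results known. The direction of these lists and of the transcription factors above is therefore not independent evidence. The lists share Sparc and Lama1, and the parietal list shares Gata6 and Sox7 with the transcription factors above. It also shares Stra6 with the RA response list and Fst with the BMP, Nodal and TGF-beta list below. The summed level of the basement membrane list was 19098, 13180 and 10063 CPM in the Sox1+FOXA2+ progeny and 45179, 83096 and 70565 CPM in the Sox1-FOXA2+ progeny.

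Lamb1, the beta chain of laminin-111, was at 1644, 1089 and 759 CPM in the Sox1+FOXA2+ progeny and 4675, 9313 and 7977 CPM in the Sox1-FOXA2+ progeny. The difference was 6.29-fold (log2 fold change -2.65 ± 0.45 (SE), adjusted p = 0.00567). Sparc, a collagen-binding matrix protein abundant in parietal endoderm, was at 2111, 1777 and 1594 CPM against 4084, 10244 and 9015 CPM (log2 fold change -2.09 ± 0.36 (SE), adjusted p = 0.00411). In both genes FOXA2 single-positive replicate 1 held less than the other libraries of its group. Enzymes that modify collagen moved in the same direction. P4ha2, a subunit of prolyl 4-hydroxylase, was at 176, 92.4 and 85.4 against 465, 935 and 884 CPM (log2 fold change -2.69 ± 0.37 (SE), adjusted p = 0.00111). Plod2, a lysyl hydroxylase, was at 220.5, 172 and 161 against 804, 1450 and 1154 CPM (log2 fold change -2.62 ± 0.37 (SE), adjusted p = 0.00133). Serpinh1, the collagen chaperone HSP47, was at 598, 401 and 542 against 926, 2127 and 2275 CPM (log2 fold change -1.79 ± 0.31 (SE), adjusted p = 0.00332). Nid2, nidogen 2, which links laminin and collagen networks, differed least of these, at 237, 278 and 182 against 938, 719 and 583 CPM (log2 fold change -1.69 ± 0.30 (SE), adjusted p = 0.00425).

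Tfpi, an inhibitor of tissue factor secreted by parietal endoderm, had the smallest p of that list, at 155, 98.9 and 85.6 CPM against 486, 486 and 395 CPM (log2 fold change -2.01 ± 0.25 (SE), adjusted p = 0.000349). Fst, follistatin, which binds activin, was at 163, 145 and 143 against 368, 919 and 967 CPM (log2 fold change -2.32 ± 0.39 (SE), adjusted p = 0.00545). Pth1r, the receptor of parathyroid hormone-related protein and a marker of parietal endoderm, was at 11.4, 20.4 and 38.8 against 98.8, 501 and 484 CPM (log2 fold change -3.94 ± 0.74 (SE), adjusted p = 0.0214). Srgn, the proteoglycan serglycin, was at 24.2, 30.9 and 67.7 against 147, 580.0 and 724 CPM (log2 fold change -3.56 ± 0.73 (SE), adjusted p = 0.0323). Pth1r and Srgn differed more than Tfpi but spread more within the Sox1-FOXA2+ progeny, and each kept its call only without FOXA2 single-positive replicate 1, with an adjusted p of up to 0.142 and 0.175 when any one of the other 5 libraries was left out. The count of parietal endoderm genes called lower ranged from 5 (double-positive replicate 2 left out) to 12 (FOXA2 single-positive replicate 1 left out). Without those libraries, 6 and 13 basement membrane genes were called.

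**Figure D2:**
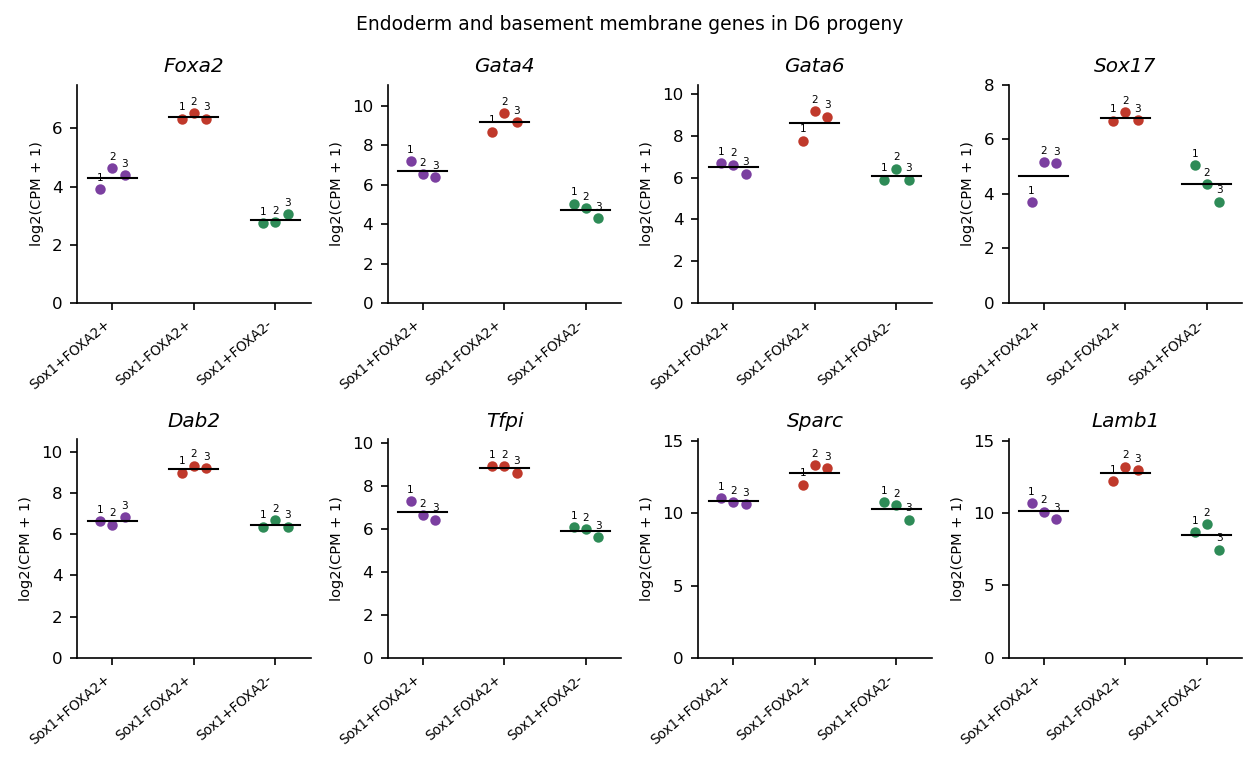
Level on the log2(CPM + 1) scale of 8 endoderm and basement membrane genes in the 3 groups of D6 progeny; points are libraries numbered by replicate and bars are means. In all 8 genes the 3 Sox1-FOXA2+ libraries lie above the 3 Sox1+FOXA2+ libraries. Replicate 1 is the lowest of the Sox1-FOXA2+ group in Gata4, Gata6, Sparc and Lamb1, and by a smaller margin in Dab2 and Foxa2.

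Visceral endoderm genes did not move as one. Of 17 tested, 2 were called lower and 0 higher, with a median log2 fold change of -0.38. Dab2 (ENSMUSG00000022150.16, chr15:6299788-6440712), a clathrin adaptor of endocytosis, had one of the smallest adjusted p-values of the whole comparison. It stood at 99.9, 88.2 and 112 CPM in the Sox1+FOXA2+ progeny and 514, 646 and 599 CPM in the Sox1-FOXA2+ progeny, a 5.85-fold difference with little spread in either group (log2 fold change -2.55 ± 0.21 (SE), adjusted p = 7.25e-05). Lrp2, megalin, the large endocytic receptor that Dab2 serves, was at 1408, 874 and 676 against 1952, 2166 and 2991 CPM (log2 fold change -1.26 ± 0.30 (SE), adjusted p = 0.0254). Its call was lost without double-positive replicate 2 (adjusted p = 0.114), double-positive replicate 3 (adjusted p = 0.0556) or FOXA2 single-positive replicate 3 (adjusted p = 0.0871). Cubn, cubilin, the partner of megalin, was at 543, 339 and 176 against 445, 443 and 758 CPM and the groups overlapped (log2 fold change -0.64 ± 0.40 (SE), adjusted p = 0.497). Apoe was at 9.63, 9.93 and 34.0 against 5.5, 7.01 and 9.22 CPM and did not pass the test (adjusted p = 0.182).

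Over all genes, the smallest p-values among those that were lower belonged to Dab2, Spock1, Rffl, Prkaa2 and Vangl1. Spock1, a testican proteoglycan, was at 12.1, 15.6 and 8.34 CPM against 101, 259.9 and 179.7 CPM, a 15.003-fold difference (log2 fold change -3.91 ± 0.36 (SE), adjusted p = 7.25e-05). Rffl, a ubiquitin ligase, was at 53.8, 42.4 and 35.3 against 225, 275 and 229.5 CPM (adjusted p = 7.25e-05). Prkaa2, a catalytic subunit of the energy sensor AMPK, was at 36.0, 46.5 and 37.2 against 224, 387 and 312 CPM (adjusted p = 9.45e-05). Vangl1, a planar cell polarity protein, was at 43.4, 39.2 and 31.2 against 232, 161 and 182 CPM (adjusted p = 9.56e-05). Each of these called genes stayed called without any one library, and in each the libraries of the 2 groups were well separated.

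Among called genes whose libraries did not overlap and whose average log2 CPM was at least 2, the largest decreases were found in Pga5, Tcf23, Capn6, Nog, Pth1r, Spock1, Adora1, Adamts9, Kit and Srgn, with log2 fold changes from -5.02 to -3.56. Kit, the receptor of stem cell factor, was at 49.8, 22.0 and 38.8 CPM against 125, 753 and 543 CPM (log2 fold change -3.68 ± 0.63 (SE), adjusted p = 0.0116). Adamts9, a matrix protease, was at 44.9, 81.9 and 99.8 against 345, 1477 and 1178 CPM (log2 fold change -3.73 ± 0.62 (SE), adjusted p = 0.0103). Capn6, a calpain without protease activity, was at 2.73, 0.709 and 4.56 against 20.3, 66.0 and 37.0 CPM (log2 fold change -3.95 ± 0.61 (SE), adjusted p = 0.00213). Capn6, Spock1 and Adora1 kept their calls without any one library. Kit and Adamts9 kept theirs in 2 of 6 fits that each left out 1 library, those without FOXA2 single-positive replicate 1 and without FOXA2 single-positive replicate 2, and reached adjusted p-values of 0.0907 and 0.0811. Pga5 kept its call in 2 of the 6 (without double-positive replicate 1 or FOXA2 single-positive replicate 1) and Tcf23 in 3 (also without double-positive replicate 3), with adjusted p-values of up to 0.223 and 0.159. Nog, Pth1r and Srgn kept theirs only without FOXA2 single-positive replicate 1.

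Some neural progenitor genes were higher in the double-positive progeny. Of 20 tested, 5 were called higher (Sox9, Sox11, Nes, Nr2f2 and Meis2), 0 were called lower and 15 were not called. A log2 fold change above 0 was found in 16 and below 0 in 4, with a median of 1.43. Sox9 (ENSMUSG00000000567.5, chr11:112782224-112787760), an HMG box factor of neural stem cells and neural crest, was at 107, 106 and 90.4 CPM in the Sox1+FOXA2+ progeny and 9.93, 14.2 and 8.75 CPM in the Sox1-FOXA2+ progeny. The 9.23-fold difference had one of the smallest adjusted p-values of the comparison (log2 fold change 3.21 ± 0.28 (SE), adjusted p = 7.25e-05). Sox9 was not called when all 57 libraries shared one estimate of the spread. Sox11 (ENSMUSG00000063632.6, chr12:27334264-27342574), a related factor of neural progenitors and young neurons, was at 106, 106 and 109.7 CPM against 9.5, 19.8 and 17.8 CPM (log2 fold change 2.77 ± 0.27 (SE), adjusted p = 9.56e-05). The 3 double-positive libraries were nearly equal in both genes.

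Nes, nestin, the intermediate filament of neural stem cells, was at 283, 198 and 287 CPM against 103, 73.3 and 81.4 CPM, a 2.98-fold difference (log2 fold change 1.58 ± 0.26 (SE), adjusted p = 0.00262). Nr2f2, the nuclear receptor COUP-TFII, was at 88.8, 149.9 and 176 against 12.6, 40.3 and 42.1 CPM (log2 fold change 2.13 ± 0.40 (SE), adjusted p = 0.0101). Meis2, a TALE homeodomain partner of Hox proteins, was at 191, 487 and 419 against 46.1, 137 and 83.5 CPM (log2 fold change 2.04 ± 0.44 (SE), adjusted p = 0.0231). Sox9, Sox11 and Nes stayed called without any one library. Nr2f2 was lost without double-positive replicate 3 (adjusted p = 0.0757), and Meis2 without double-positive replicate 2 (adjusted p = 0.105), double-positive replicate 3 (adjusted p = 0.133) or FOXA2 single-positive replicate 3 (adjusted p = 0.136). Pax6, a master regulator of forebrain and eye, was low at 1.93, 5.27 and 7.04 CPM against 0.82, 0.396 and 1.03 CPM, and did not pass the test (log2 fold change 2.66 ± 0.73 (SE), adjusted p = 0.052).

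Of the 7 neuroectoderm genes that the study plots, 5 were called higher and 0 lower, with a median log2 fold change of 2.099. The study shows these genes for these same samples, so the direction of the list is not independent evidence. Besides Sox9, Nes and Meis2 it holds S100a6, a calcium-binding protein, at 48.6, 79.5 and 124 against 22.7, 14.4 and 21.7 CPM (log2 fold change 2.099 ± 0.38 (SE), adjusted p = 0.00601), and Cpe, carboxypeptidase E, at 92.5, 146 and 159 against 8.63, 30.9 and 31.4 CPM. Cpe was called in the full set (adjusted p = 0.0247) and kept the call only without FOXA2 single-positive replicate 1.

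Markers of mature neurons were mostly not called. Of 14 neuron genes tested, 1 was called higher and 0 lower, with 12 above 0 and a median of 1.09. The called gene was Syt1, synaptotagmin 1, the calcium sensor of synaptic vesicles, at 50.1, 63.6 and 57.1 CPM against 4.34, 18.6 and 18.9 CPM (log2 fold change 2.03 ± 0.50 (SE), adjusted p = 0.0398), and it kept the call only without FOXA2 single-positive replicate 1, with an adjusted p of up to 0.147 without another library. Nefm, a neurofilament subunit, was at 12.04, 18.8 and 20.1 against 0.868, 2.97 and 8.28 CPM and did not pass (adjusted p = 0.0774). With the replicate number as a block Nefm was called (adjusted p = 0.0365), and 2 neuron genes in all.

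The progeny of Sox1+FOXA2- cells did not stand to one side of the double-positive progeny in all of these genes. Sox9 was at 89.6, 76.9 and 52.2 CPM there, Sox11 at 168, 129 and 134 CPM, Nes at 445, 640.4 and 337 CPM and Nr2f2 at 273, 301 and 293 CPM. In the double-positive libraries Sox9 lay above every library of the Sox1 single-positive progeny, and Sox11, Nes and Nr2f2 lay below every one, which was not tested.

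**Figure D3:**
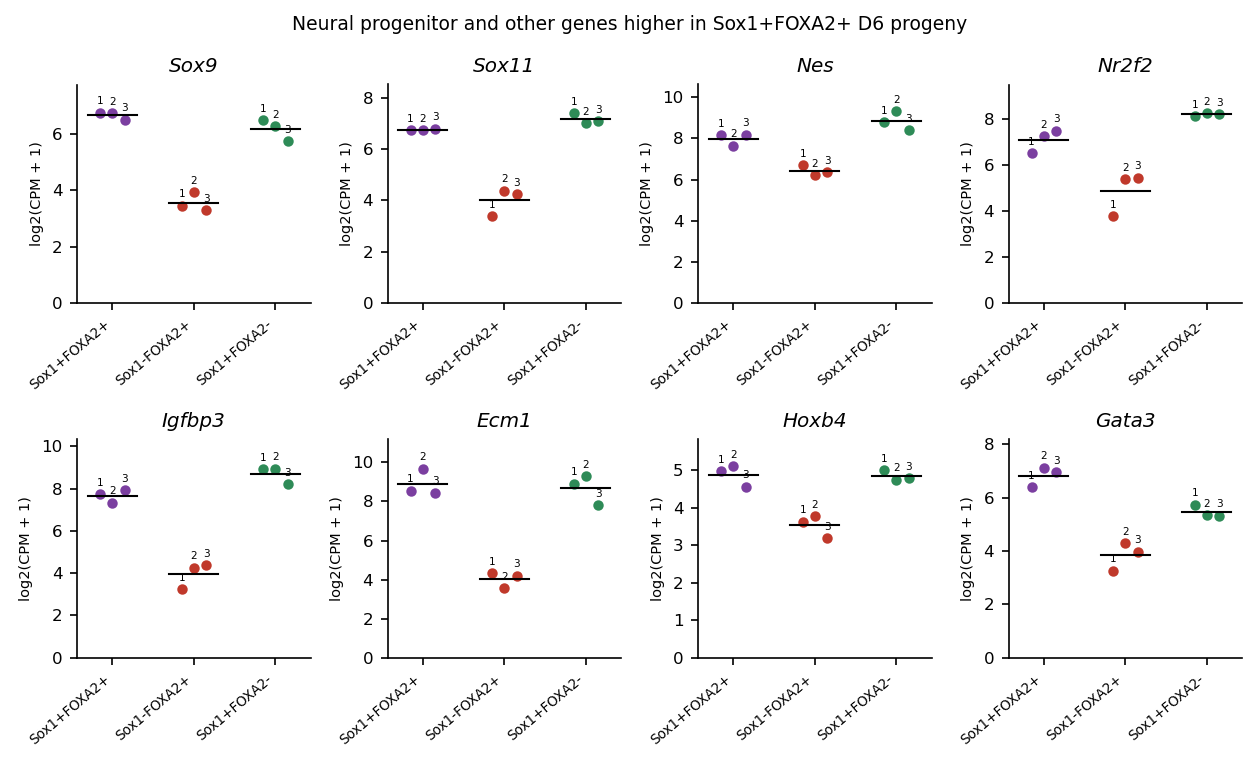
Level on the log2(CPM + 1) scale of 8 genes called higher in the Sox1+FOXA2+ D6 progeny, with both single-positive progenies beside it; points are libraries numbered by replicate and bars are means. The 3 Sox1+FOXA2+ libraries lie above the 3 Sox1-FOXA2+ libraries in all 8 genes, and Igfbp3 and Ecm1 show the widest gaps.

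Hox genes, which give positional identity along the body axis and respond to RA, were read for 15 of the 30 listed. Of these, 4 were called higher and 0 lower, with a median log2 fold change of 1.86. Hoxb4 was at 30.7, 33.5 and 22.6 CPM in the Sox1+FOXA2+ progeny and 11.4, 12.7 and 8.11 CPM in the Sox1-FOXA2+ progeny (log2 fold change 1.43 ± 0.31 (SE), adjusted p = 0.015). Hoxb9 was at 14.4, 21.6 and 29.8 against 0.145, 3.28 and 1.55 CPM (log2 fold change 3.71 ± 0.79 (SE), adjusted p = 0.0235), and Hoxc5 at 11.1, 20.7 and 12.8 against 0, 0.283 and 1.43 CPM (log2 fold change 4.71 ± 1.05 (SE), adjusted p = 0.0278). Hoxb3 was at 8.99, 12.7 and 9.06 against 0, 0.311 and 0.517 CPM (log2 fold change 5.19 ± 0.89 (SE), adjusted p = 0.00324), but 88.4% of its exon bases lie within another gene's span and it is undercounted in all libraries. Hoxb3 alone of the 4 kept its call without any one library. The number called was 1 without double-positive replicate 2, and 2 without double-positive replicate 1, double-positive replicate 3 or FOXA2 single-positive replicate 3.

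Genes of the RA response moved in both directions. Of 17 tested, 2 were called higher and 1 lower, with a median of 0.92. Dhrs3, a retinaldehyde reductase induced by RA, was at 118, 158 and 39.3 CPM against 23.7, 13.5 and 16.3 CPM (log2 fold change 2.56 ± 0.51 (SE), adjusted p = 0.0162). Rarb, RA receptor beta and itself an RA target, was at 103, 131 and 62.5 against 50.3, 21.2 and 16.2 CPM (log2 fold change 1.76 ± 0.42 (SE), adjusted p = 0.0334). Stra6, the receptor that takes up retinol and also a member of the parietal endoderm list, went the other way. It was at 19.7, 16.2 and 10.6 against 32.5, 74.1 and 83.0 CPM (log2 fold change -2.03 ± 0.39 (SE), adjusted p = 0.0077). Dhrs3 and Rarb kept their calls only without double-positive replicate 3 and without FOXA2 single-positive replicate 1, and reached adjusted p-values of 0.104 and 0.137 without another library. Stra6 kept its call without any one library. Cyp26b1, which degrades RA, was at 67.7, 123.2 and 12.5 against 23.8, 2.46 and 3.48 CPM and did not pass (adjusted p = 0.243).

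Over all genes, the smallest p-values among genes that were higher belonged to Sox9, Igfbp3, Mmd, Sox11 and Gas1. Igfbp3, a binding protein of insulin-like growth factors, was at 211, 161 and 245 CPM in the Sox1+FOXA2+ progeny and 8.39, 18.3 and 19.8 CPM in the Sox1-FOXA2+ progeny, a 13.3-fold difference (log2 fold change 3.73 ± 0.34 (SE), adjusted p = 7.25e-05). It reached 484, 490.4 and 294 CPM in the Sox1+FOXA2- progeny. Gas1, a membrane co-receptor of hedgehog, was at 43.4, 43.6 and 53.8 against 7.14, 6.87 and 8.51 CPM (log2 fold change 2.64 ± 0.27 (SE), adjusted p = 0.000112). Mmd was at 43.1, 63.2 and 54.7 against 5.45, 7.23 and 5.5 CPM (log2 fold change 3.14 ± 0.30 (SE), adjusted p = 9.45e-05). All of these stayed called without any one library.

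By the same limits, the largest increases were found in Ranbp3l, Nupr1, Hoxb3, Ecm1, Nptx1, Hoxc5, Tph1, Has1, Map3k19 and Zfp804a, with log2 fold changes from 3.81 to 5.27. Ecm1, a secreted matrix protein, was the most abundant of them, at 373, 819 and 349 CPM against 19.2, 10.8 and 17.4 CPM, a 32.5-fold difference (log2 fold change 5.02 ± 0.49 (SE), adjusted p = 0.000251). Nupr1, a stress-induced nuclear protein, was at 16.5, 40.4 and 69.6 against 0.868, 0.989 and 1.5 CPM (log2 fold change 5.23 ± 0.61 (SE), adjusted p = 0.000239). Nptx1, neuronal pentraxin 1, was at 14.3, 14.8 and 24.0 against 0.338, 0.961 and 0.517 CPM (log2 fold change 4.85 ± 0.67 (SE), adjusted p = 0.000796). Has1, a hyaluronan synthase, was at 22.9, 28.7 and 14.3 against 0.868, 1.1 and 1.13 CPM (log2 fold change 4.40 ± 0.57 (SE), adjusted p = 0.000511). Nupr1 and Nptx1 were higher in each double-positive library than in any library of the Sox1+FOXA2- progeny, at 5.35, 1.75 and 2.7 and 3.83, 7.68 and 2.36 CPM, which was not tested. The calls of Ranbp3l, Hoxc5, Map3k19 and Zfp804a each held in 1 to 3 of the 6 fits that left out 1 library, always in that without FOXA2 single-positive replicate 1, and their adjusted p rose to at most 0.15, 0.15, 0.175 and 0.0991. With the replicate block Map3k19 was not called (adjusted p = 0.118).

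Mesenchymal and contractile genes were above 0 in most cases but few were called. Of 22 neural crest and mesenchyme genes tested, 1 was called higher (Prrx2, which lost its call without double-positive replicate 2 or 3 or FOXA2 single-positive replicate 2) and 0 lower, with 18 above 0 and a median of 1.69. The replicate block called 2. Over all genes tested 2.28% were called higher and the median was 0.09, so the 1 call is no result about the list. Of 14 smooth muscle genes tested, 3 were called higher and 0 lower, with a median of 1.03. Myl9, a regulatory light chain of myosin, was at 56.9, 34.7 and 50.4 CPM against 11.04, 11.7 and 11.2 CPM (log2 fold change 2.06 ± 0.24 (SE), adjusted p = 0.000239), and kept its call without any one library. Tpm1, tropomyosin 1, was at 2597, 1464 and 2194 against 1297, 629 and 569.6 CPM (log2 fold change 1.33 ± 0.31 (SE), adjusted p = 0.0216), and Myh11, smooth muscle myosin, at 125, 45.3 and 60.8 against 12.3, 19.6 and 25.0 CPM (log2 fold change 2.02 ± 0.44 (SE), adjusted p = 0.023). Tpm1 lost its call without double-positive replicate 1, FOXA2 single-positive replicate 2 or FOXA2 single-positive replicate 3 (adjusted p of up to 0.0996), and Myh11 in all fits but those without double-positive replicate 1 or 2 (up to 0.094). With the replicate number as a block Myh11 was no longer called (adjusted p = 0.0621). In the Sox1+FOXA2- progeny Myl9 was at 138, 114 and 118 CPM and Myh11 at 194, 292 and 116 CPM.

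Among imprinted genes of growth control, 6 of 12 tested were called higher and 0 lower, with a median of 1.13. Plagl1, a zinc finger regulator of this group of genes, was at 98.5, 76.4 and 71.9 CPM against 16.4, 33.9 and 24.4 CPM (log2 fold change 1.72 ± 0.29 (SE), adjusted p = 0.00286). Peg10 was at 5967, 5669 and 6425 against 3182, 1670 and 2125 CPM (log2 fold change 1.37 ± 0.26 (SE), adjusted p = 0.00723). These calls held without any one library, whereas those of Peg3, H19, Mest and Dlk1 were lost in 3 to 5 of the 6 fits. H19, a noncoding RNA, was at 2369, 1331 and 1714 against 1188, 641 and 674 CPM (log2 fold change 1.11 ± 0.28 (SE), adjusted p = 0.0307).

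Components of signaling pathways were called on both sides. For Wnt, 3 of 27 genes tested were higher and 2 lower, with a median of 0.87. The receptor Fzd7 was at 109, 180.5 and 146 CPM against 43.3, 52.8 and 49.9 CPM (log2 fold change 1.58 ± 0.28 (SE), adjusted p = 0.004), and the ligand Wnt5a at 24.2, 59.8 and 52.2 against 14.9, 12.1 and 8.09 CPM (log2 fold change 1.96 ± 0.35 (SE), adjusted p = 0.00481). Fzd7 and Wnt5a kept their calls without any one library. Sfrp1 was called higher, and Frzb and Tcf7l1 lower. Sfrp1 kept its call only without FOXA2 single-positive replicate 1 or 2 (adjusted p of up to 0.199). The lower calls went from 2 to 0 without double-positive replicate 2 or FOXA2 single-positive replicate 2, and adjusted p-values reached 0.115 for Frzb and 0.195 for Tcf7l1. For BMP, Nodal and TGF-beta, 3 of 28 were higher (Smad6, Id2 and Smad7) and 3 lower (Fst, Bmp2 and Nog), with a median of 0.80. Smad6, an inhibitory Smad induced by BMP, was at 50.2, 73.4 and 24.9 against 9.93, 6.02 and 1.65 CPM (log2 fold change 3.08 ± 0.58 (SE), adjusted p = 0.00914). Nog, noggin, a secreted BMP antagonist, was at 1.52, 6.92 and 7.92 against 20.4, 116 and 116 CPM (log2 fold change -3.94 ± 0.92 (SE), adjusted p = 0.0472). With the replicate block Nog was no longer called (adjusted p = 0.0603), and it kept its call only without FOXA2 single-positive replicate 1 (up to 0.218 otherwise). Fst kept its call without any one library, while Id2, Smad7 and Bmp2 were lost in 2, 4 and 3 of the 6 such fits (adjusted p of up to 0.0786, 0.217 and 0.103). Smad6 lost its call without FOXA2 single-positive replicate 2 (adjusted p = 0.0505).

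For FGF, 2 of 16 genes tested were higher and 2 lower, with a median of 0.48. The 2 that rose are feedback inhibitors of the ERK pathway. Dusp6, an ERK phosphatase, was at 53.8, 54.1 and 92.4 CPM against 11.7, 10.8 and 16.7 CPM (log2 fold change 2.35 ± 0.29 (SE), adjusted p = 0.00035), and Spry1 at 12.04, 9.83 and 11.4 against 1.59, 2.6 and 1.11 CPM (log2 fold change 2.65 ± 0.44 (SE), adjusted p = 0.00271). The ligand Fgf10 and the receptor Fgfr4 were called lower, Fgfr4 not with the replicate block (adjusted p = 0.0863). Fgf10 kept its call only without double-positive replicate 1 or FOXA2 single-positive replicate 1 (adjusted p of up to 0.169 otherwise), and Fgfr4 only without the latter (up to 0.225). The number of FGF genes called lower was 0 without double-positive replicate 2, without FOXA2 single-positive replicate 2 or 3, and with only the 2 groups fitted, whereas Dusp6 and Spry1 kept their calls without any one library. For hedgehog and the ventral neural tube, 1 of 11 was called higher (Smo, the transducer, at 38.6, 61.7 and 54.1 against 22.1, 28.4 and 22.4 CPM, with an adjusted p of up to 0.111 when 1 library was left out) and 1 lower (Foxa2). With the replicate block 4 of the 11 were called. Of 13 Notch genes 0 were called by edgeR, 1 had an unadjusted p under 0.05 (16.5% of all genes tested did), and DESeq2 called 1.

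Genes of proliferation and metabolism were lower in part. Of 27 cell cycle genes tested, 5 were called lower and 0 higher, with 24 below 0 and a median of -0.60. Top2a, topoisomerase II alpha, was at 280.2, 368 and 428 CPM against 766, 892 and 815 CPM (log2 fold change -1.20 ± 0.24 (SE), adjusted p = 0.0103), and Mki67, the Ki-67 antigen, at 410.2, 322 and 369 against 993, 755 and 955 CPM (log2 fold change -1.30 ± 0.28 (SE), adjusted p = 0.0142). Top2a kept its call without any one library, and Mki67 lost it without double-positive replicate 2 (adjusted p = 0.0783). The count of cell cycle genes called lower was 1 without double-positive replicate 2, 12 without double-positive replicate 3 and 2 without either FOXA2 single-positive replicate 2 or 3. With the replicate block it was 10, with 1 gene called higher. Of 21 glycolysis and hypoxia response genes, 6 were called lower and 0 higher, with a median of -0.57. Pfkl and Bnip3 kept their calls without any one library. Vegfa kept its call only without double-positive replicate 2 or FOXA2 single-positive replicate 1 (adjusted p of up to 0.151 otherwise). Pgk1 kept its call only without double-positive replicate 3 (up to 0.138 otherwise). Pfkl, liver-type phosphofructokinase, was at 48.6, 45.9 and 43.2 against 140.4, 228 and 249 CPM (log2 fold change -2.16 ± 0.25 (SE), adjusted p = 0.000239).

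Of 19 genes of cholesterol and lipid synthesis, 3 were called lower (Insig1, Scd2 and Scd1) and 0 higher, with a median of -0.46. Insig1, a sterol sensor that restrains SREBP, was at 32.3, 21.1 and 25.5 CPM against 132, 387 and 408 CPM, a 11.8-fold difference (log2 fold change -3.56 ± 0.37 (SE), adjusted p = 0.000198). Its level in the Sox1+FOXA2- progeny was 21.3, 20.1 and 20.9 CPM. Scd2, a stearoyl-CoA desaturase, was at 203, 222 and 261 against 389, 746 and 763 CPM (log2 fold change -1.47 ± 0.28 (SE), adjusted p = 0.00764).

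Epithelial genes did not share one direction. Of 15 keratin and junction genes tested, 2 were called lower and 1 higher (Pkp2), with a median of -1.10. Their summed level was 1993, 1809 and 1832 CPM in the double-positive libraries, below FOXA2 single-positive replicate 1 and above replicates 2 and 3 of that group, whose sums are given above. Pkp2 kept its call only without FOXA2 single-positive replicate 1 (adjusted p of up to 0.202 otherwise). Epcam, an adhesion molecule of epithelia, was at 15.3, 6.99 and 11.9 CPM against 74.1, 38.3 and 39.5 CPM (log2 fold change -2.15 ± 0.38 (SE), adjusted p = 0.00422). Krt8 was at 267, 163 and 215 against 1139, 494 and 505 CPM (log2 fold change -1.73 ± 0.37 (SE), adjusted p = 0.0175), and lost its call without double-positive replicate 2 (adjusted p = 0.0961) or 3 (adjusted p = 0.0554). Here FOXA2 single-positive replicate 1 was the highest of its group, and Krt7 reached 197 CPM in it against 14.8 and 17.8 CPM in the others. Of 15 pluripotency genes, 2 were called lower and 0 higher: Tfcp2l1 and Klf4. Klf4 was at 73.1, 103 and 84.5 against 92.3, 307 and 297 CPM, and its libraries overlapped although it was called. It kept the call only without FOXA2 single-positive replicate 1. Tfcp2l1 kept its call only without double-positive replicate 3 or FOXA2 single-positive replicate 3 (adjusted p of up to 0.136 otherwise).

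**Figure D4:**
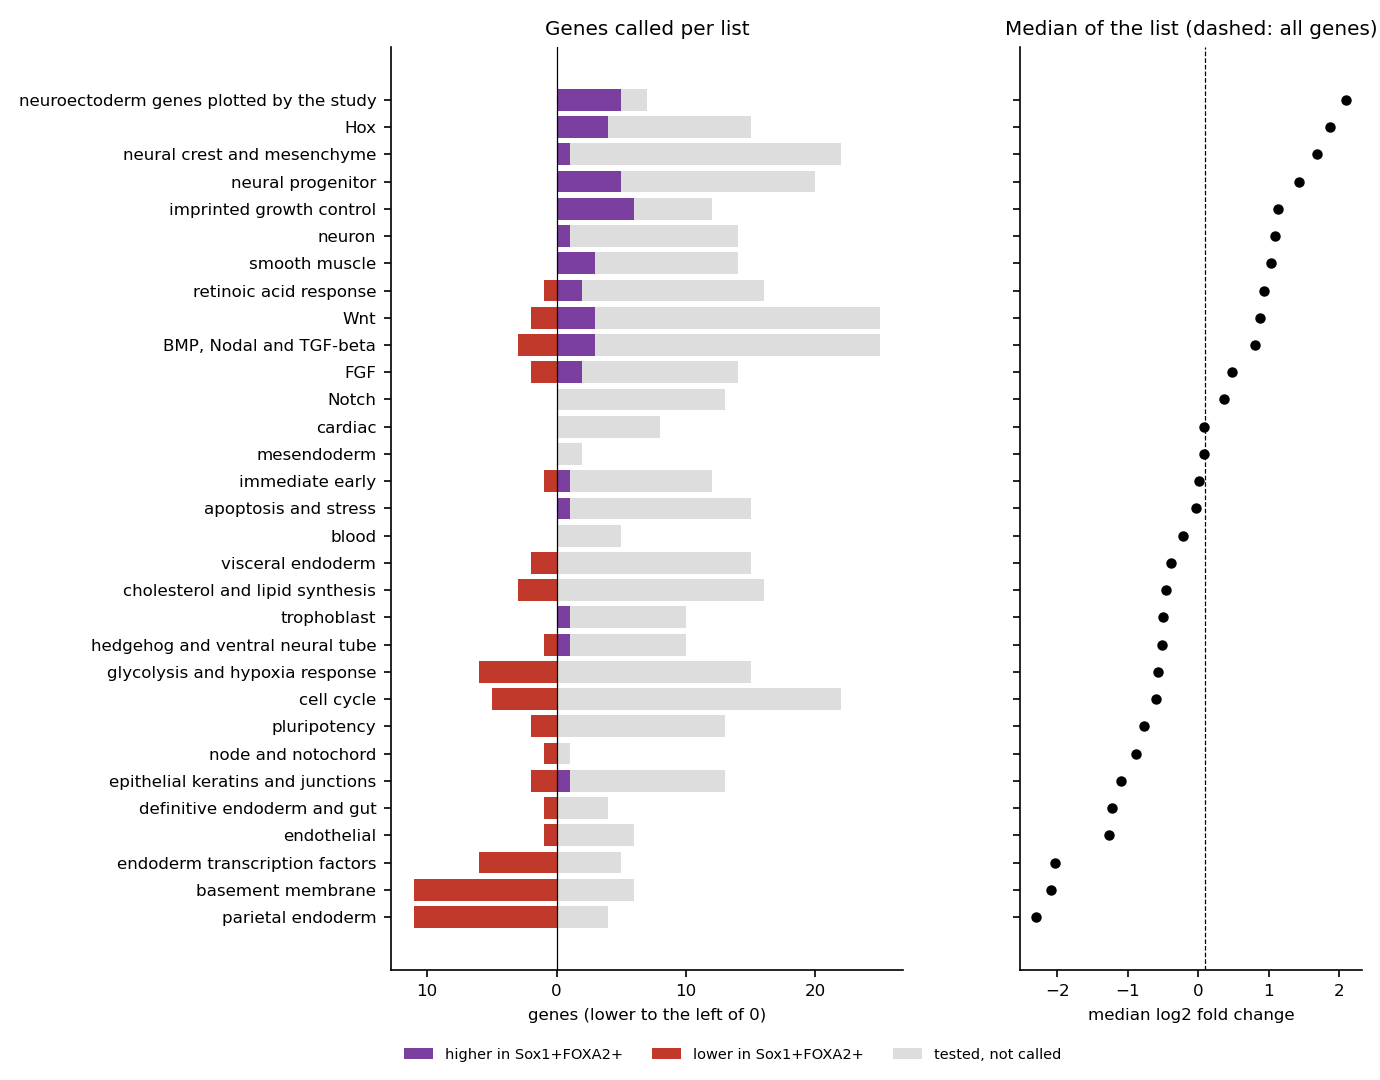
Left, genes called higher (right of 0), called lower (left of 0) and tested but not called for 31 gene lists; right, the median log2 fold change of each list, with the median of all genes tested dashed. Parietal endoderm, basement membrane and endoderm transcription factors lie lowest, at medians of -2.30, -2.09 and -2.03, and the study's neuroectoderm genes lie highest, at 2.099.

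The same comparison in D4 progeny, harvested 2 days after replating, used other libraries. Replicate 1 was shallow in both groups, with 13480175 counts in the Sox1+FOXA2+ and 10170632 in the Sox1-FOXA2+ progeny. Replicates 2 and 3 held 33568259 to 73126473. The top 10 genes took 32.8% and 31.2% of the counts in replicate 1, against 17.3% to 20.6%. Mitochondrial transcripts took 18.5% in double-positive replicate 1. What this did to the calls was not tested. Of 20697 genes tested, 164 were called (0.792%), 24 higher (0.116%) and 140 lower (0.676%) in the Sox1+FOXA2+ progeny. With the replicate number as a block 637 were called, 220 higher and 417 lower. Without FOXA2 single-positive replicate 3 the count was 294, and without any one of the other 5 libraries it lay between 91 and 138. Of the 976 genes called at D6, 975 were tested at D4, and 942 of these had the same direction there (96.6%, against 67.4% of the 19499 genes tested on both days). At D4, 118 of them were called in the same direction and 0 in the other. Nothing in the labels excludes that D4 and D6 progeny of 1 replicate came from the same D2 sort.

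Endoderm genes were called lower at D4, whereas calls of neural genes at D4 depended on the test and on the block. At D4, 10 basement membrane genes, 8 parietal endoderm genes and 3 endoderm transcription factors were called lower, with medians of -1.82, -2.23 and -2.18. Gata4 had a log2 fold change of -3.62 ± 0.47 (SE, adjusted p = 0.00104) and Dab2 of -3.22 ± 0.50 (SE, adjusted p = 0.00659), both called. Of 17 neural progenitor genes tested at D4, 0 were called by edgeR without the block, 10 had an unadjusted p under 0.05 (8.88% of all genes did), and the median was 0.88. With the replicate block 8 were called, all higher, and DESeq2 called 4. Sox11 had a log2 fold change of 1.22 ± 0.31 (SE, adjusted p = 0.0866) at D4 and Nes of 0.80 ± 0.39 (SE, adjusted p = 0.584), and neither was called by edgeR without the block.

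A test of the change of the difference from D4 to D6 called 5 of 22416 genes (0.0223%): Slc13a5, Sox9, Cubn, AA986860 and Igfbp7. In all 5 the double-positive progeny gained relative to the FOXA2 single-positive progeny. Cubn (ENSMUSG00000026726.10, chr2:13276338-13491813) stood at 19.9, 40.3 and 18.6 CPM in the Sox1+FOXA2+ and 620.1, 1130 and 640.0 CPM in the Sox1-FOXA2+ progeny at D4, and at 543, 339 and 176 against 445, 443 and 758 CPM at D6. The gap at D4 was wide and the groups overlapped at D6. Slc13a5, a citrate transporter, stood at 3.11, 0.794 and 1.71 against 50.3, 56.8 and 63.0 CPM at D4 and at 40.6, 25.6 and 20.5 against 62.6, 80.6 and 124 CPM at D6. Sox9 took another course: it held its level in the double-positive progeny, at 115, 109 and 73.1 CPM at D4, while the Sox1-FOXA2+ progeny had 58.7, 69.8 and 43.1 CPM at D4 and the much lower level given above at D6. Levels of the 2 days were normalized separately.

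With the replicate block 11 genes were called, 3 of them among these 5. Cubn and Slc13a5 then missed the threshold (adjusted p = 0.0712 for both). Without D4 double-positive replicate 3 none of the 5 was called (adjusted p of 0.105 to 0.107), nor was any other gene. In that edgeR fit 979 of 24316 genes had an unadjusted p under 0.05, against 854 of 22416 (3.81%) with all 12 libraries. Without D4 FOXA2 single-positive replicate 1 none of the 5 was called either (adjusted p of 0.0606 to 0.108), and the 1 gene then called was another. Without D6 FOXA2 single-positive replicate 1 the count was 20. Without any one of D4 double-positive replicate 1, D4 FOXA2 single-positive replicate 3 and D6 FOXA2 single-positive replicate 2 it was 2, each time from these 5, and without D4 double-positive replicate 2 it was 12.

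**Figure D5:**
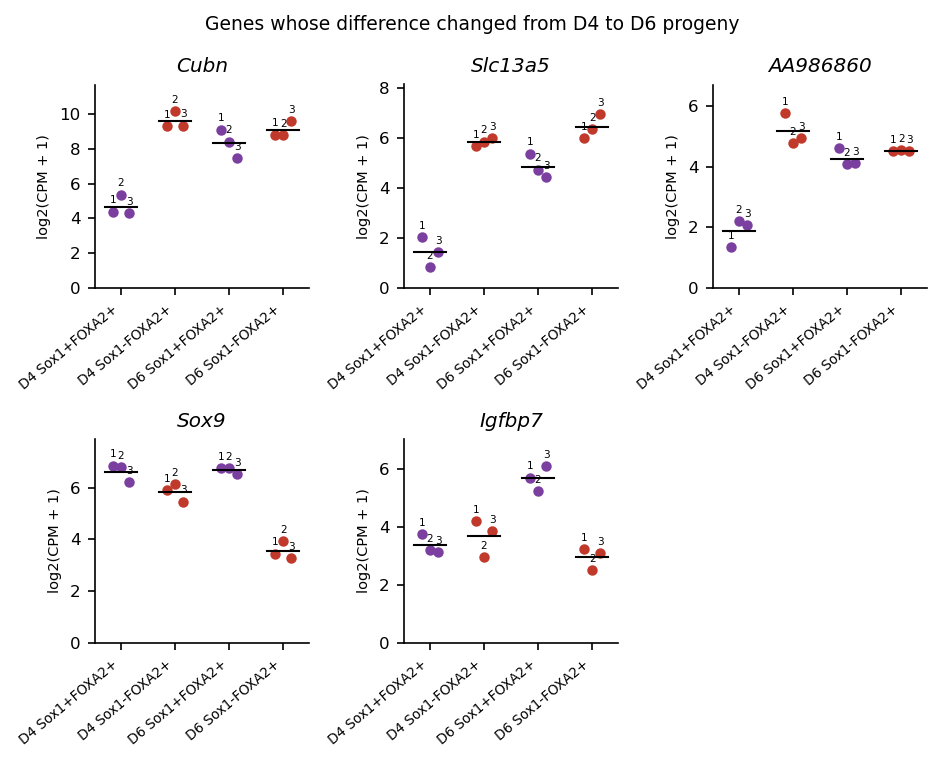
Level on the log2(CPM + 1) scale of the 5 genes whose difference between Sox1+FOXA2+ and Sox1-FOXA2+ progeny changed from D4 to D6; points are libraries numbered by replicate and bars are means, normalized within each day. Cubn, Slc13a5 and AA986860 lie higher in the Sox1+FOXA2+ progeny at D6 than at D4, Igfbp7 lies above the Sox1-FOXA2+ level at D6 only, and Sox9 is lower in the Sox1-FOXA2+ progeny at D6 than at D4.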

How the data were processed

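RNA was sequenced from 57 libraries of 19 conditions, with 3 biological replicates each. The authors made libraries with a stranded SMART-Seq kit, aligned the reads with STAR, handled alignments with SAMtools and counted reads per gene with featureCounts against GENCODE M21 (GRCm38). Versions and the strand setting are not given in the sources used here. The deposited values are raw counts, with no normalization, for 55450 genes; 92 further lines name no gene and hold 0 counts. Total counts per library were 24946933 to 76784146 in the 6 libraries compared at D6. What limited the precision was not tested.

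Libraries were grouped by title. Log2 fold changes, SE and p-values came from edgeR 4.0.16 (R 4.3.3; TMM, robust quasi-likelihood test, two-sided, prior count 0.125), fitted on all 9 D6 progeny libraries after edgeR's filter on low counts (10 as the least count, 15 as the least total). Adjustment followed Benjamini and Hochberg across every gene tested. The same was done for the 9 D4 progeny libraries, and a fit of the 12 libraries of both days tested the change of the difference. CPM used the same factors. The procedure was tested on simulated counts. p-values measure the spread between these replicates of 1 clone.

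Members and gene lists were chosen with earlier results of these data known. Genes were named if they marked the sort, if they were among the 10 largest changes or 5 smallest p-values in a direction (called, not overlapping, average log2 CPM of at least 2, no clone names), or if they were among the 6 smallest p-values of a list or defined it. The 5 genes whose difference changed between days were named because that test called them. A gene that the rule names is not reported here. Promoter windows came from RefSeq's table of GRCm38.p6, which had no entry for Gata4 and Sox9. Deviations of same-numbered replicates from their group means had correlations over 5000 genes of 0.13, 0.13 and 0.42 at D6. At D4 they were 0.61, 0.43 and 0.28. All were above 0.1, so the replicate number was also fitted as a block. At D6 an unmatched pair, double-positive replicate 2 and FOXA2 single-positive replicate 1, reached 0.128 as well. The other unmatched pairs at D6 lay from -0.289 to -0.0495. The pairing at D6 thus stands out in replicate 3 only. The other alternatives were DESeq2 1.42.0, its size factors, no filter, only the 2 groups, all 57 libraries, a minimum log2 fold change of 1 and leaving out each replicate.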

Additional observations from a re-analysis of the deposited data

Results flagged for a closer look

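The difference between Sox1+FOXA2+ and Sox1-FOXA2+ progeny changed from D4 to D6 in 5 genes by a test of that change in edgeR. The log2 change of the difference was 4.24 ± 0.59 (SE) for Cubn, 3.39 ± 0.57 (SE) for AA986860, 3.33 ± 0.54 (SE) for Slc13a5 and 2.39 ± 0.40 (SE) for Sox9 (adjusted p = 0.0185 for each), and 3.30 ± 0.59 (SE) for Igfbp7 (adjusted p = 0.0356). AA986860 stood at 1.56, 3.63 and 3.21 CPM in the Sox1+FOXA2+ and 53.6, 26.2 and 29.8 CPM in the Sox1-FOXA2+ progeny at D4, and at 23.4, 16.1 and 16.2 against 21.8, 22.2 and 21.9 CPM at D6. Igfbp7, a secreted binding protein of insulin-like growth factors, stood at 12.6, 8.28 and 7.74 against 17.6, 6.82 and 13.6 CPM at D4, where the groups overlapped, and at 51.4, 36.7 and 68.0 against 8.44, 4.7 and 7.62 CPM at D6, where they did not. Cubn and Slc13a5 missed the threshold with the replicate block, and all 5 did without D4 double-positive replicate 3 and also without D4 FOXA2 single-positive replicate 1.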

How the results depend on the processing

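At D6 the count of called genes, 976 in the report, was 1887 with DESeq2's Wald test, 1858 without a filter on low counts, 1537 with a newer estimate of the quasi-dispersion and 76 when all 57 libraries shared one estimate of the spread (75 of them among the 976). With only the 2 compared groups fitted, so that the Sox1+FOXA2- progeny gave no part of the spread, it was 666 (647 of them among the 976). It was 466 to 1341 when 1 replicate was left out. At D4 the 164 became 495 with DESeq2, 471 without the filter, 300 with only the 2 groups, 17 with all 57 libraries and 637 with the replicate block, and 91 to 294 with 1 replicate left out. For the change of the difference between days, the 5 became 24 with DESeq2, 44 without the filter and 11 with the replicate block. It was 0 with all 57 libraries (858 of 29607 genes at an unadjusted p under 0.05 in edgeR), and 0 to 20 with 1 replicate left out. Of the members of the gene lists, 89 were called at D6, against 9 with all 57 libraries, 163 without the filter and 46 to 112 with 1 replicate left out; of the named genes 106 were called, against 12 with all 57 libraries and 60 to 101 with 1 replicate left out. No value changed its direction beyond a threshold under these alternatives. With all 57 libraries 0 endoderm transcription factors, 1 parietal endoderm, 4 basement membrane and 0 neural progenitor genes were called. The replicate block, which rests on the pairing of replicate numbers, changed no other call of a gene given in the report than those named there and that of Atf3 (adjusted p = 0.0773). The newer quasi-dispersion and a spread estimated without robustness were chosen after seeing the data. The cause of these differences was not tested.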

Other observations

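Other cell types that the unsorted progeny could hold were read from short marker lists. Of 10 trophoblast genes tested 1 was called, higher: Gata3, a zinc finger factor that also acts in neural crest and ear, at 83.7, 139 and 122.8 CPM in the Sox1+FOXA2+ progeny and 8.61, 18.7 and 14.7 CPM in the Sox1-FOXA2+ progeny (log2 fold change 3.04 ± 0.32 (SE), adjusted p = 0.000132). The median of that list was -0.50, and the replicate block called 2. Its summed level was 232 CPM in FOXA2 single-positive replicate 1 against 53.7 and 59.7 CPM in the others. Most of the 232 CPM was Krt7, which is also in the epithelial list and is given above. Gata3 was lowest of its group in that library. Of 7 endothelial genes 1 was called, lower: Flt1, a VEGF receptor, at 29.5, 17.0 and 12.2 against 47.7, 45.5 and 47.6 CPM (log2 fold change -1.26 ± 0.34 (SE), adjusted p = 0.0444), which lost its call in 5 of the 6 fits that left out 1 library. For 5 blood and 8 cardiac genes, edgeR called 0, with 0 and 2 at an unadjusted p under 0.05 (16.5% of all genes tested were), and DESeq2 called 0 and 2. For 2 mesendoderm genes all of these counts were 0. Of 5 definitive endoderm and gut genes Sox17 was called, and of 2 node and notochord genes Nog was called, both lower and both described above.

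Of 13 immediate early genes 1 was called higher and 1 lower. Myc was at 25.7, 36.8 and 26.4 CPM against 10.9, 9.58 and 8.42 CPM (log2 fold change 1.62 ± 0.30 (SE), adjusted p = 0.00538), and Atf3, a stress-responsive factor, at 25.1, 14.995 and 19.4 against 205, 60.6 and 46.9 CPM (log2 fold change -2.40 ± 0.58 (SE), adjusted p = 0.0444). Myc kept its call without any one library. Atf3 kept its call only without FOXA2 single-positive replicate 1 or 3 (adjusted p of up to 0.216 otherwise). Of 15 apoptosis and stress genes, Gdf15, a secreted stress cytokine, was called higher and 0 lower. Gdf15 was at 15.6, 1.32 and 0.829 CPM in the Sox1+FOXA2+ progeny, and the 3 Sox1-FOXA2+ libraries held 0, 2 and 2 counts of it. Without double-positive replicate 1, the library at 15.6 CPM, the call was lost (adjusted p = 0.197).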
